A study of Mus musculus with 11 samples.

Results

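Transcripts of the p38 and JNK stress kinase genes were followed in corneas of mice kept under desiccating stress and given eye drops of vehicle or of a Trk receptor agonist. The genes were set by name, as a cascade that runs from MAP kinase kinase kinases to the MAPK-activated kinases and the small heat shock protein Hspb1. All 10 genes named were among the 248 genes measured. The panel lists them as MAP3K1, MAP3K5, MAP3K7, MAP2K4, MAP2K6, MAPK14, MAPK8, MAPKAPK2, MAPKAPK5 and HSPB1, and the mouse spelling is used below. The list is by name and no measured value entered it, but it was drawn up with earlier results of these data known.

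The p38 and JNK kinases are the stress-activated branches of the MAP kinase family. In each branch a MAP3K phosphorylates a MAP2K, which phosphorylates the MAPK, and p38 in turn activates further kinases such as MK2, whose best-known substrate is the small heat shock protein HSP27, encoded by Hspb1. In the ocular surface epithelium these kinases are known for their activation by drying and by hyperosmolar tears, and for driving cytokine and matrix metalloproteinase expression. They are switched on by phosphorylation, which a transcript count does not measure.

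Total RNA of cornea, with corneal epithelia named as the cells, was counted with the NanoString mouse Inflammation panel, which counts 1 probe per gene without amplification. All 11 samples came from female C57BL/6J mice after 5 days of desiccating stress. That is low humidity with an air draft and scopolamine in the water to stop tear secretion. Eye drops were given 2 times a day. The drops held the vehicle, PBS (3 samples), 10 uM of the pan-Trk agonist pan (4 samples) or 10 uM of the TrkC agonist C1 (4 samples), and no unstressed cornea was analysed here. The study calls its samples biological replicates and dropped those that failed its quality control, and the sources used here do not say how many mice made up each RNA sample. One age label reads 3 months for every sample. A second label gives 2 to 3 months to every vehicle sample and to pan replicates 1, 2 and 3. It gives 22 to 24 months to pan replicate 4 and every C1 sample. The paper's methods state an age of at most 10 weeks at use for its mice, far below 22 to 24 months.

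Values are log2 normalized counts, that is probe counts that the authors scaled to housekeeping genes, so 1 unit is a doubling. The total over the 248 genes was 91955 to 133098 probe counts in the vehicle samples, 64156 to 101351 in pan replicates 1 to 3, 646446 in pan replicate 4 and 165828 to 525997 in the C1 samples. Treatment with C1, a higher total and the older age label therefore fall together and cannot be told apart against vehicle. None of 7 corneal epithelial markers (Krt12, Krt5, Krt14, Pax6, Aldh3a1, Cdh1, Epcam) was among the genes analysed here, so 0 of 7 could be used to check the labelled cells. The 9 macrophage markers, all measured, summed to 238 to 375 normalized counts in vehicle, 178 to 238 in pan and 276 to 391 in C1 samples. In such bulk RNA, fewer cells of a type and less RNA per cell cannot be told apart.

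The promoters of Hspb1, Mapk14 and Map3k7 are shown because Hspb1 and Mapk14 were low and Map3k7 was high in the same pan samples, a choice made after their values were seen. Each window runs from 250 bases before to 50 bases after an annotated start in RefSeq (GRCm38.p6), and is printed 5′ to 3′ on the gene's strand. Capitals mark matches on either strand to GAANNTTC or TTCNNGAA, the core repeats of heat shock elements, to TGANTCA, which AP-1 binds, or to TGACGT, which ATF and CREB factors bind and which reads as ACGTCA on the other strand. The Hspb1 window lies at chr5:135887669-135887968 (plus strand), the first Mapk14 window at chr17:28691092-28691391 (plus strand) and the Map3k7 window at chr4:31963857-31964156 (plus strand).
Hspb1: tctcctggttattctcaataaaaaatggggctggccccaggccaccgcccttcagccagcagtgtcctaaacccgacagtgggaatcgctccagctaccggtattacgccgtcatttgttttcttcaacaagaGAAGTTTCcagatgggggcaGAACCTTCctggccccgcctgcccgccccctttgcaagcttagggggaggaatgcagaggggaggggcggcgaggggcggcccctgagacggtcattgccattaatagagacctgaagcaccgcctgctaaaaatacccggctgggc
Mapk14: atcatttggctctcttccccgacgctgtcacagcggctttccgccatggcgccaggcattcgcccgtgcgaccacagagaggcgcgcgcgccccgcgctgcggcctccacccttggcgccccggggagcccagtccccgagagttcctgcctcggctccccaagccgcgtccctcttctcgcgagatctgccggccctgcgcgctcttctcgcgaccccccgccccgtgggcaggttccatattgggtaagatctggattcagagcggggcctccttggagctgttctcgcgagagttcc
Map3k7: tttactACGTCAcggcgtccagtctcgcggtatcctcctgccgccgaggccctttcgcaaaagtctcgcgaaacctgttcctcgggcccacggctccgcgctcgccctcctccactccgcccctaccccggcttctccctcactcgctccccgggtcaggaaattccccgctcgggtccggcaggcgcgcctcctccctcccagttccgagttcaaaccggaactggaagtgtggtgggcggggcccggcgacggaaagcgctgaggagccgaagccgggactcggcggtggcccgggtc
The Hspb1 promoter held GAANNTTC 2 times, as GAAGTTTC beginning 117 bases and GAACCTTC beginning 97 bases before the start. At least 2 copies were found in 0.344% of 32851 promoter windows of this length, and at least 1 copy in 7.86%. Map3k7 held ACGTCA 244 bases before the start, a match that 7.51% of windows have. The printed Mapk14 window and the second annotated one held none of the 4 motifs. TTCNNGAA and TGANTCA, found in 8.52% and 7.81% of windows, matched in none of the 3 printed promoters. Of the 15 windows of the 10 genes, those of Map2k4, Map2k6, Mapk8 and Mapkapk5 also held matches. In Map2k4, GAANNTTC and TTCNNGAA overlapped.

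The first tier holds the MAP3Ks. Map3k1 (gene ID 26401), encoding MEKK1, an activator of the JNK branch, had log2 values of 11.28, 11.02 and 11.25 with vehicle. With pan they were 10.99, 11.28, 11.18 and 10.89 in replicates 1 to 4, and with C1 they were 11.08, 10.84, 10.76 and 10.84. Of the C1 samples, 3 of 4 lay below the lowest vehicle sample, and C1 replicate 1 lay inside the vehicle range. Map3k5 (gene ID 26408), encoding the oxidant-activated kinase ASK1, had 11.49, 11.22 and 11.35 with vehicle. Its pan values were 10.81, 11.66, 11.16 and 10.96 and its C1 values were 11.32, 11.09, 11.29 and 11.40. Pan replicate 2 was above and the other pan samples were below the vehicle range, and a single C1 sample, replicate 2, was below it. Map3k7 (gene ID 26409) encodes TAK1, which carries interleukin 1, TNF and TGF-beta signals to both branches. It had 11.16, 10.82 and 11.02 with vehicle, 11.32, 11.23, 11.43 and 10.82 with pan, and 11.26, 11.17, 10.88 and 11.00 with C1. In this gene pan replicates 1 to 3 exceeded the highest vehicle sample, while pan replicate 4 lay with the lowest one, and C1 replicates 1 and 2 were just above the vehicle range.

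Of the MAP2Ks, Map2k4 (gene ID 26398) encodes MKK4, which phosphorylates JNK and to a lesser degree p38. Its log2 values were 10.74 to 10.87 in vehicle, 10.55, 11.06, 10.82 and 10.76 in pan replicates 1 to 4, and 10.72 to 10.95 in C1 samples. Map2k6 (gene ID 26399) encodes MKK6, a kinase selective for p38, and was far more variable. It had log2 values of 6.78, 7.18 and 6.93 with vehicle. The pan values were 5.61, 7.01, 6.29 and 6.82, and the C1 values were 6.59, 6.77, 7.25 and 7.44. The values of pan replicates 1 and 3 lay below those of every other sample, resting on 15 and 27 probe counts against 55 to 74 in vehicle samples. C1 samples fell on both sides of the vehicle range, replicates 1 and 2 below it and replicates 3 and 4 above it. With C1 replicates 3 and 4 also having the higher totals of that group, the part of depth in this spread was not tested within C1.

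At the MAPK tier, Mapk14 (gene ID 26416), encoding p38 alpha, had log2 values of 10.70, 10.55 and 10.55 with vehicle. With pan it had 9.99, 10.66, 10.25 and 10.56, and with C1 it had 10.40, 10.44, 10.62 and 10.72. The vehicle samples spanned 0.15, whereas pan replicates 1 and 3 were 0.61 and 0.35 below the vehicle mean and pan replicates 2 and 4 were inside the vehicle range. Mapk8 (gene ID 26419), encoding JNK1, had 9.58, 9.47 and 9.53 with vehicle. Its pan values were 9.41, 9.69, 9.82 and 9.38, 2 above and 2 below the vehicle range. Its C1 values were 9.81, 9.74, 9.58 and 9.81. Every C1 sample was above every vehicle sample for Mapk8, although C1 replicate 3, with 767 normalized counts, barely exceeded vehicle replicate 1, with 765.

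The kinases downstream of p38 differed greatly in how well they were measured. Mapkapk2 (gene ID 17164), encoding MK2, the kinase that p38 alpha activates and that phosphorylates HSP27, had 10.68, 10.58 and 10.48 with vehicle. Pan samples had 10.20, 10.86, 10.25 and 10.71, and C1 samples had 10.53, 10.72, 10.91 and 11.02. Relative to the vehicle range, pan replicates 1 and 3 were below, pan replicates 2 and 4 above, and C1 replicates 2 to 4 above. Mapkapk5 (gene ID 17165), encoding MK5 or PRAK, was near the limit of detection, with 8 to 10 probe counts in vehicle samples, 1 to 35 in pan samples and 7 to 31 in C1 samples. Its log2 values ran from 3.72 to 4.53, from 1.70 to 4.09 and from 3.19 to 4.0. A count of 0 allows up to 3 counts, and pan replicate 1, with 1 count, was under that limit.

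Hspb1 (gene ID 15507) encodes HSP27, an actin-binding chaperone that MK2 phosphorylates. It had 22178, 21128 and 19959 normalized counts with vehicle, 12730, 23263, 12614 and 21522 with pan, and 17988, 18865, 21051 and 21049 with C1. On the log2 scale these are 14.44, 14.37 and 14.28, then 13.64, 14.51, 13.62 and 14.39, and then 14.13, 14.20, 14.36 and 14.36. Pan replicates 1 and 3 stood 0.73 and 0.74 below the vehicle mean, and pan replicates 2 and 4 stood 0.14 and 0.03 above it. Every pan value of Hspb1 rested on at least 3922 probe counts. The C1 samples were all within 0.23 of the vehicle mean.

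**Figure D1:**
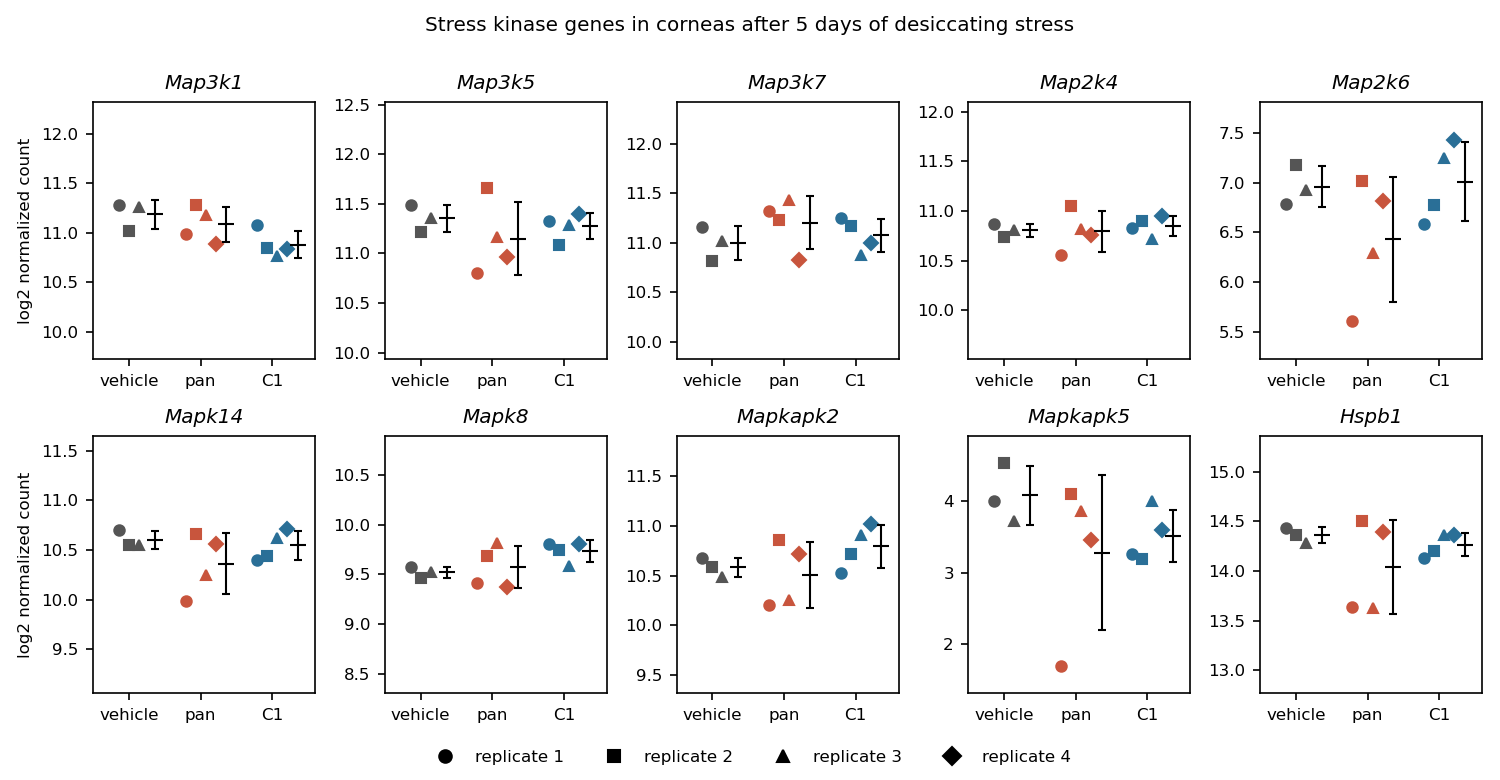
Log2 normalized count (y axis) of each of the 10 genes in every vehicle, pan and C1 sample, with symbols for replicate numbers and a bar for the group mean and SD. Panels span the same range except that of Mapkapk5, which is taller, and pan replicates 1 and 3 are the low points of Hspb1, Mapk14, Mapkapk2 and Map2k6.

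These genes varied most between the pan samples. The SD of the log2 values in the pan group was 0.48 for Hspb1, 0.63 for Map2k6, 0.33 for Mapkapk2 and 0.31 for Mapk14, against 0.08, 0.20, 0.10 and 0.09 in the vehicle group. Over the 9 genes whose mean log2 value was 5 or more, which leaves out Mapkapk5, the median SD was 0.10 with vehicle, 0.31 with pan and 0.14 with C1. The 131 genes of the panel at that level had medians of 0.14, 0.34 and 0.19, so the pan group was also the widest over the panel. Counting error alone would give an SD of 0.02 for Hspb1 in the pan group, and the measured SD was 26.8 times that. The ratio sets the spread between samples against counting error alone, which is small at such counts, and the SD of Hspb1 itself stood at percentile 69.5 of the 131 genes in the pan group. For Mapkapk5 the ratio was 0.83, 1.28 and 0.95 in the vehicle, pan and C1 groups, so its differences between samples were about as large as counting error.

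**Figure D2:**
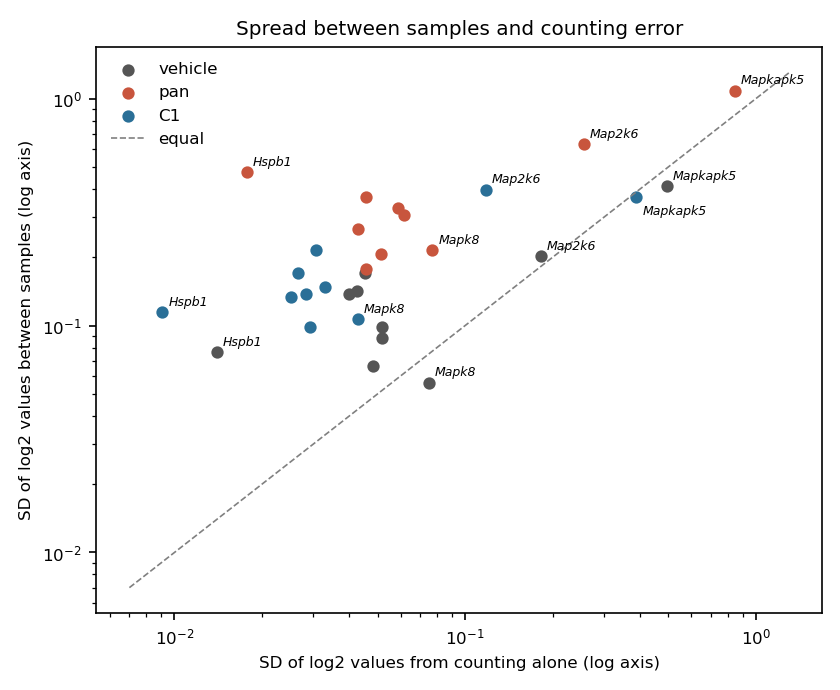
SD of log2 values between the samples of a group (y axis, log) against the SD that counting alone would give (x axis, log), with 1 point for each gene and group and a dashed line where both are equal. The Hspb1 point of the pan group lies furthest above the line, at 26.8 times the counting SD, and the Mapkapk5 points lie near it.

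Within pan replicates 1 and 2 most of the genes shifted the same way, but not all of them moved together across the group. In pan replicate 1, 9 of the 10 genes were below the lowest vehicle sample and Map3k7 was above the highest, where 58.5% and 17.3% of all 248 genes did the same. In pan replicate 3, 5 were below and 2, Map3k7 and Mapk8, above, against 48.0% and 25.0% of all genes. Pan replicate 2 had 7 above and 0 below, against 35.5% and 27.0%, and pan replicate 4 had 1 above and 4 below, against 15.7% and 41.9%. The lowest totals of all samples were those of pan replicates 1 and 3, 64156 and 81855 probe counts, and the part of RNA quantity or quality in their values was not tested.

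The difference between 2 genes of a sample does not depend on the scaling of that sample. Map3k7 minus Mapk14 on the log2 scale was 0.46, 0.27 and 0.47 in vehicle samples, 1.34, 0.57, 1.19 and 0.26 in pan samples, and 0.85, 0.73, 0.25 and 0.28 in C1 samples. Pan replicates 1 and 3 held the highest values, with C1 replicates 1 and 2 next. For Map3k7 minus Hspb1 the values were -3.28, -3.55 and -3.26 with vehicle, -2.31, -3.27, -2.19 and -3.57 with pan, and -2.88, -3.03, -3.49 and -3.36 with C1. The same 4 samples were highest. Map3k7 was seen to be high, and Mapk14 and Hspb1 low, in pan replicates 1 and 3. These differences therefore had to peak there and are no separate result. Hspb1 minus Mapk14 ran only from 3.38 (pan replicate 3) to 3.85 (pan replicate 2). Probes differ in efficiency, so only how these differences vary between samples can be read, not their sign.

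**Figure D3:**
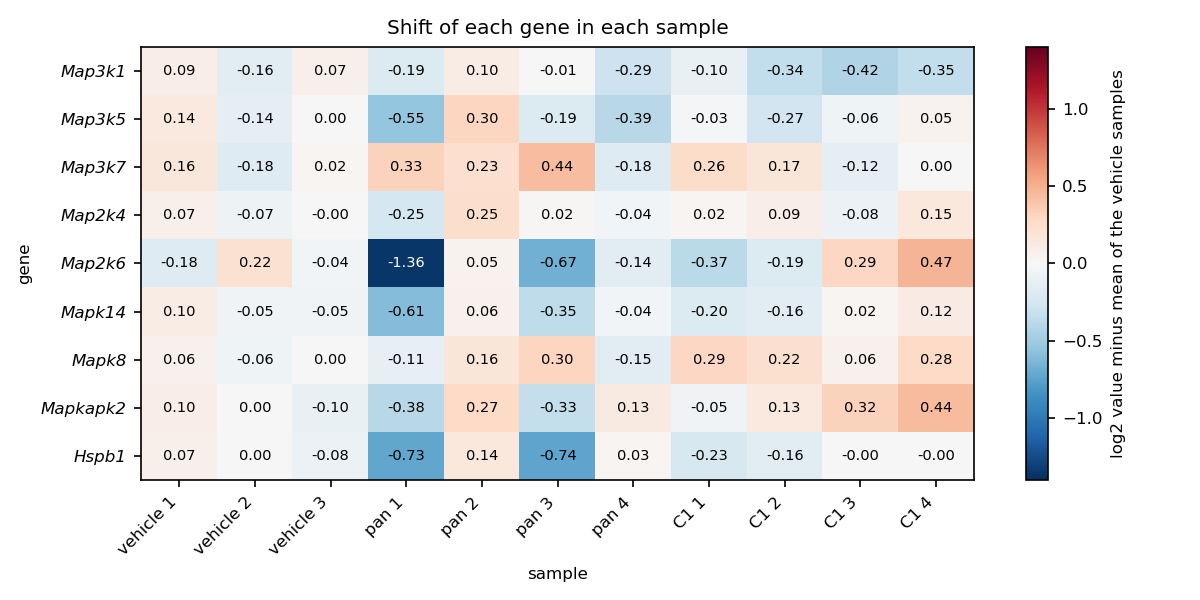
Log2 value of each gene minus its vehicle mean (colour and printed number) in each of the 11 samples, for the 9 genes whose mean log2 value was 5 or more. Columns of pan replicates 1 and 3 are blue for Map2k6, Hspb1, Mapk14 and Mapkapk2 and red for Map3k7.

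The likeness of patterns was measured as the root mean square difference of centred log2 values over the 11 samples. Among the genes themselves the closest were Map2k4 and Mapk8 at 0.12, Mapk14 and Hspb1 at 0.12, and Mapk14 and Mapkapk2 at 0.13, and the furthest were Map3k7 and Map2k6 at 0.64. Among 130 other panel genes, Hspb1 was closest to Nod1 (0.09) and Rhoa (0.09), Mapk14 to Nfatc3 (0.08) and Hras (0.09), and Map3k7 to Rapgef2 (0.08). Mapkapk2 was closest to Grb2 (0.10) and Ltb4r1 (0.11), and Map2k4 to Ptk2 (0.06) and Nfkb1 (0.07). Mapk8 was closest to Il10rb (0.08) and Hif1a (0.11), Map3k1 to Tollip and Irf5 (each 0.11), and Map3k5 to Tgfb2 and Ripk1 (each 0.12). Map2k6 had no gene that close, with Mx1 at 0.18 and Gnas at 0.18. The median over the candidates was 0.35 for Hspb1, 0.29 for Mapk14, 0.26 for Map2k4 and 0.49 for Map2k6. The measure grows with a gene's own spread, so the higher values of Map2k6 do not show that its pattern stands alone. These likenesses describe the same 11 samples, which share their totals and scaling, and carry no test.

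Pan was compared with vehicle to ask whether the agonist changed transcripts of the cascade. None of the 10 genes passed an adjusted p of 0.05 in limma with Benjamini-Hochberg adjustment over 248 genes, where 2.02% of all genes did. At an unadjusted p under 0.05 there were 0 of 10, against 12.5% of all genes, and the groups were apart, with no overlap, for 0 of 10, against 10.9%. Values were lower for 8 genes and higher for 2, with a median log2 fold change of -0.15, against -0.20 over all genes. Among genes whose mean log2 value was 5 or more, the median was -0.10 for the 9 of the cascade and -0.07 for the 131 of the panel. Hspb1 had a log2 fold change of -0.32 (standard error 0.30, 95% interval -1.01 to 0.36, adjusted p = 0.686 from limma), with 2 of 4 pan samples below the vehicle range. Map2k6 had -0.53 (standard error 0.36, 95% interval -1.37 to 0.30, adjusted p = 0.577 from limma) and Mapk14 had -0.24 (standard error 0.24, 95% interval -0.79 to 0.32, adjusted p = 0.746 from limma). Map3k7 was the gene with the highest value, 0.20 (standard error 0.24, 95% interval -0.34 to 0.75, adjusted p = 0.778 from limma), with 3 of 4 pan samples above the vehicle range. Each of these differences was smaller than the spread between pan samples. Map3k5 had -0.21, Map3k1 -0.10, Mapkapk2 -0.08, Mapk8 0.05 and Map2k4 -0.01, each within its standard error. Mapkapk5 had -0.80 (standard error 0.57, adjusted p = 0.583 from limma), which rests on the 1 count in pan replicate 1, since without that sample the value was -0.28. Two-sided exact permutation tests gave p of 0.286 to 1, where 3 samples against 4 cannot go below 0.0571. Over the 9 well-detected genes the intervals reached from -1.37 to 0.75.

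For pan replicates 1 and 3 the low values moved the differences. Without pan replicate 1, Map2k6 was -0.26 and Mapk14 -0.11, and without pan replicate 3, Hspb1 was -0.18. Map3k7 ranged from 0.11 without vehicle replicate 2 to 0.33 without pan replicate 4, and Map3k5 from -0.38 without pan replicate 2 to -0.09 without pan replicate 1. In a fit of all groups that held the log2 total as a covariate, Hspb1 was -0.37, Map2k6 -0.60 and Mapk14 -0.27. Among the samples that share the age label of 2 to 3 months, they were -0.44, -0.66 and -0.30. Macrophage markers were lower for 8 of 9 genes with pan and none of the 9 passed the test. Their part in these values was not tested.

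C1 was compared with vehicle in the same way. Again 0 of 10 genes passed an adjusted p of 0.05, as did 0% of all genes, and 0 of 10 had an unadjusted p under 0.05, against 10.5%. Values were higher for 5 genes and lower for 5, with a median log2 fold change of -0.004, against -0.02 over all genes. Mapk8 was the 1 gene whose groups did not overlap, higher with C1 in 4 of 4 samples. Over all genes 10.1% had groups with no overlap, and 6.05% were higher with C1. The log2 fold change of Mapk8 was 0.21 (standard error 0.12, 95% interval -0.08 to 0.50, adjusted p = 0.567 from limma), and its exact permutation p was 0.0571, the smallest possible here. With 1 sample left out it stayed between 0.18 and 0.26. It was 0.48 with the age label as a covariate, a term that rests on pan replicate 4. Map3k1 had the largest difference among the 9 well-detected genes of the cascade, -0.30 (standard error 0.14, 95% interval -0.64 to 0.03, adjusted p = 0.452 from limma). Its exact permutation p was 0.114. With the total as a covariate this value was -0.18, and with the age label as a covariate it was -0.04. Mapkapk2 had 0.21 (standard error 0.16, 95% interval -0.16 to 0.59, adjusted p = 0.720 from limma), with 3 of 4 C1 samples above the vehicle range. With the total count as a covariate its direction turned, to -0.01. Hspb1 had -0.10 (standard error 0.13, 95% interval -0.40 to 0.20) and Mapk14 -0.05 (standard error 0.14, 95% interval -0.38 to 0.27), each smaller than its standard error. With the age label as a covariate they were -0.57 and -0.31. Of the others, Map3k5 had -0.08, Map3k7 0.08, Map2k4 0.04 and Map2k6 0.05. Mapkapk5 had -0.57 (standard error 0.27, adjusted p = 0.452 from limma) on 7 to 31 counts in the C1 samples. With 1 sample left out its value ran from -0.75 to -0.35. For the 9 well-detected genes the intervals lay between -0.64 and 0.62, narrower than with pan. Macrophage markers were higher for 7 of 9 genes, with none past the test, and their part was not tested.

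The agonists were given at the same dose and for the same time, so C1 was also compared with pan directly, as the 1 pair of compounds. As with the other comparisons, 0 of 10 genes passed an adjusted p of 0.05, against 0.403% of all genes. None had an unadjusted p under 0.05, against 15.3%, and none had groups with no overlap, against 8.06%. Values were higher with C1 for 8 of 10 genes, with a median log2 fold change of 0.17, against 0.23 over all genes and 0.13 over the 131 well-detected genes. Map2k6 differed most, by 0.58 (standard error 0.34, 95% interval -0.20 to 1.36, adjusted p = 0.440 from limma, exact permutation p = 0.171), and was 0.19 between the 4 C1 samples and pan replicate 4, which share the older age label and leave pan with 1 sample. Mapkapk2 had 0.29 (standard error 0.22, 95% interval -0.22 to 0.80) and Hspb1 0.23 (standard error 0.25, 95% interval -0.35 to 0.80, adjusted p = 0.674 from limma). Within that older label the value of Hspb1 was -0.13, again against pan replicate 4 alone. Without pan replicate 1 Map2k6 was 0.30 and Mapk14 0.06, and without pan replicate 3 Hspb1 was 0.09. Leaving out pan replicate 2 gave the highest values, 0.77, 0.28 and 0.38. Map3k1 had -0.20 (standard error 0.18, 95% interval -0.61 to 0.20) and Map3k7 -0.13, whereas Mapk14 had 0.18, Mapk8 0.16, Map3k5 0.13, Map2k4 0.05 and Mapkapk5 0.24. These p-values missed the threshold and do not show that C1 and pan acted alike. The intervals of the well-detected genes reached from -0.61 to 1.36. All 9 macrophage markers had higher values with C1 than with pan and 0 of 9 passed the test. Their part was not tested.

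**Figure D4:**
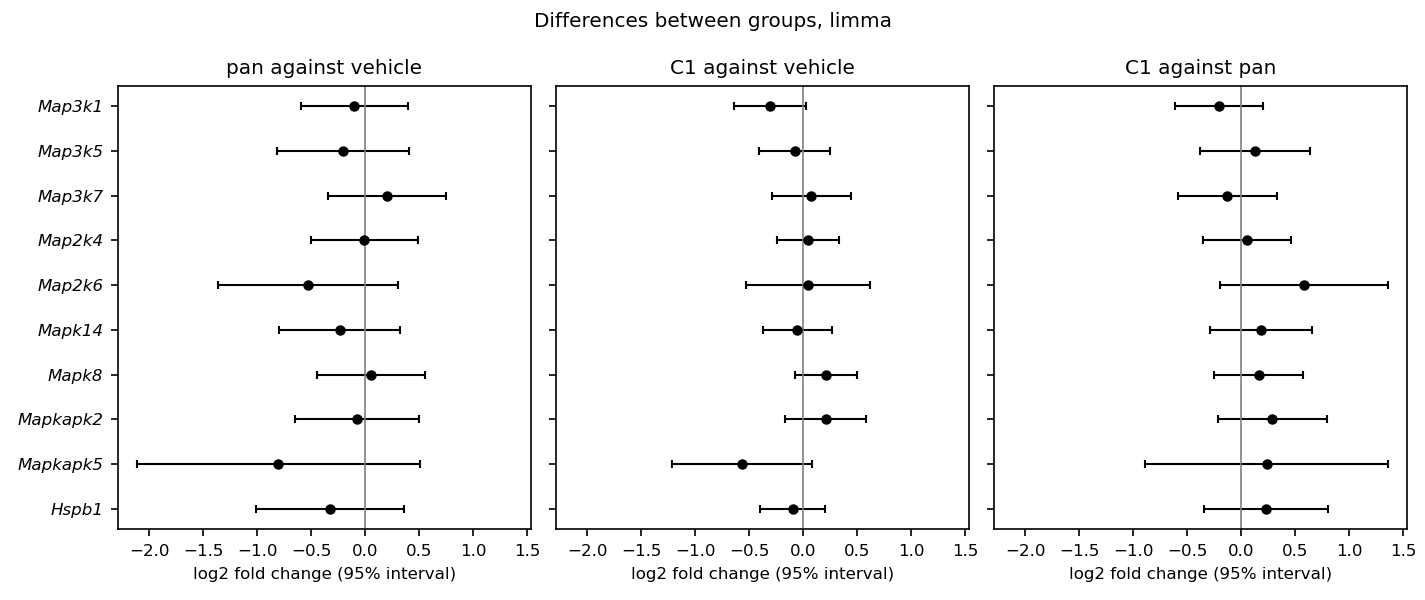
Log2 fold change (x axis) of each gene in the 3 comparisons, with its 95% interval from limma. All 10 intervals include 0 in each comparison, and those of Mapkapk5 and Map2k6 are the widest.

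Around the cascade, 36 other genes in 6 lists were followed, none of which counts as a replicate of the others, and Jun and Myc stand in 2 of the lists. With pan 19 of 36 were higher and 17 lower, and 2 passed the test, where 2.02% of all genes did. These were Tnfaip3, an inhibitor of NF-kB signalling that also acts on the inputs of TAK1 (log2 fold change 1.86, standard error 0.25, adjusted p = 0.00846 from limma), and the chemokine Cxcl1, on at least 4 counts per sample. With C1, 19 were higher and 17 lower and 0 passed, against 0% of all genes. Between C1 and pan 19 were higher and 17 lower, and again 0 passed, against 0.403%. The median log2 fold changes of the 36 were 0.04, 0.03 and 0.02, and those of all 248 genes were -0.20, -0.02 and 0.23.

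The 10 upstream inputs included the MAP3K Map3k9, the GTPases Rac1 and Cdc42 and the adaptors Traf2, Tradd and Myd88. With pan 4 were higher and 6 lower, from -0.57 for Map3k9 (standard error 0.51) to 0.36 for Daxx (standard error 0.27), and with C1 1 was higher and 9 lower, with a median of -0.08. None of the 10 passed the test.

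Of 12 nuclear and other substrates, Jun, the AP-1 subunit that JNK phosphorylates and whose own gene AP-1 controls, had the highest value in both comparisons with vehicle. Its log2 values were 9.95, 9.58 and 9.75 with vehicle, 10.44, 9.95, 10.42 and 9.94 with pan, and 10.62, 10.22, 10.04 and 10.56 with C1. Jun was higher in pan replicates 1 and 3, the samples low in Hspb1, than in the other pan samples, and every C1 sample was above every vehicle sample, as for 6.05% of all genes. Its log2 fold change was 0.43 with pan (standard error 0.24, adjusted p = 0.517 from limma) and 0.60 with C1 (standard error 0.19, adjusted p = 0.370 from limma). The exact permutation p was 0.114 and 0.0571, the latter the smallest possible. With 1 sample left out the C1 value stayed between 0.51 and 0.71. It was 0.78 with the total as a covariate and 0.93 (standard error 0.38) with the age label, a term that rests on pan replicate 4. The other substrates ranged with pan down to -1.10 for Mef2c, on as few as 2 counts in a sample, and 9 of 12 were higher with pan and 7 of 12 with C1, none past the test. The 4 immediate early genes (Fos, Jun, Myc and Maff) had medians of 0.03 with pan and 0.20 with C1, with 2 and 4 of 4 higher and none past the test.

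Transcripts that p38 and MK2 are known to stabilise were at low levels, with 1 of 10 at a mean log2 value of 5 or more and 7 of 10 at or under 3 counts in some sample. With pan 5 were higher and 5 lower, from -0.86 for Csf3 to 1.86 for Cxcl1 (standard error 0.29, adjusted p = 0.0181 from limma), the 1 gene past the test. With C1 7 were higher and 3 lower, with a median of 0.24 and none past the test, from -0.95 for Csf2 to 1.31 for Cxcl1 (standard error 0.79). Hspb2, a small heat shock relative of Hspb1, had -0.08 with pan and 0.23 with C1, neither past the test, on 8 counts or more. Tnfaip3 with C1 had 0.86 (standard error 0.39, adjusted p = 0.452 from limma).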

How the data were processed

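Log2 normalized counts of 248 genes were deposited as 2 tables by the authors, 1 per agonist with the same vehicle samples, made in ROSALIND by dividing counts by the geometric mean of housekeeping probes. The 3 vehicle columns were identical in both. Columns with the authors' fold changes, p-values and means were not used. Probe counts were recovered from the values, which lay within 0.01 of whole multiples of one step in each sample. SDs from counting and the limit of 3 counts cover counting error only, whereas the intervals from limma come from the spread between samples. Symbols were taken from the tables; 247 of 248 gene IDs were found in RefSeq (GRCm38.p6), and for 3 rows symbol and ID disagreed, where the symbol was used.
Each comparison was fitted on its own groups with lmFit and eBayes of limma 3.58.1, run in R 4.3.3, with no covariate, filter or pseudocount, and Benjamini-Hochberg adjustment over 248 genes. The fit was tested on simulated data. Permutation tests, promoter searches and figures used Python 3.11.15 with scipy 1.17.1, numpy 2.4.6, pandas 2.3.3 and matplotlib 3.10.9. Replicate numbers come from the labels. P-values measure the spread between these samples, whose origin from separate mice the labels do not give.
The genes of the cascade, the lists around it and the marker lists were chosen with earlier results of these data known. All genes of the cascade are named. Of the other lists, the highest and lowest gene of a comparison and every gene past an adjusted p of 0.05 may be named, and for each gene of the cascade whose mean log2 value is 5 or more the 2 genes of most similar pattern. A further list of signalling genes and 1 gene of similar pattern are not reported here. Markers of T cells (4 of 6 measured, summing to 19.3 to 42.3 normalized counts in a sample, Ifng lower with pan past the test), neutrophils (2 of 4 measured, 5.80 to 27.7, none past the test) and stromal fibroblasts (1 of 4 measured, Twist2, 9.74 to 29.8, not past the test) were also counted. Alternatives are given below.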

Additional observations from a re-analysis of the deposited data

How the results depend on the processing

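In the fits below, 0 of the 10 stress kinase genes passed an adjusted p of 0.05 in a comparison under any alternative run for it or with any 1 sample left out, and the lowest adjusted p of any of them from limma was 0.260. Of 347 log2 fold changes under the alternatives, 325 kept their direction, and the 22 that turned were as follows. Map2k4 with pan was 0.062 with median centring and 0.0064 with the age label as a covariate, within the age label from 2 months and with the replicate block. With C1, the age covariate, estimated only through pan replicate 4, which also has the highest total, gave 0.17 for Map3k5, -0.47 for Map2k6 and -0.069 for Mapkapk2, the total count covariate -0.36 for Map2k6 and -0.015 for Mapkapk2, median centring -0.026 for Map2k4 and -0.023 for Map2k6, and the replicate block -0.093 for Map2k6. For C1 against pan, median centring, which lowers every value there by 0.14, gave -0.012 for Map3k5 and -0.088 for Map2k4, the total count covariate 0.075 for Map3k7, and background subtraction -0.64 for Mapkapk5. There the age covariate, and likewise the samples labelled from 22 months, gave 0.25 for Map3k7, -0.012 for Mapk14 and -0.13 for Hspb1. Leaving out 1 sample turned 12 of 220 values. With pan, Map2k4 ranged from -0.092 to 0.075 (turned without vehicle replicate 1 and pan replicates 1 and 4), Mapk8 from -0.031 to 0.12 (pan replicate 3) and Mapkapk2 from -0.20 to 0.024 (pan replicates 1 and 3). With C1, Map3k7 ranged from -0.014 to 0.16 (vehicle replicate 2) and Map2k6 from -0.093 to 0.19 (vehicle replicate 1, C1 replicates 3 and 4). For C1 against pan, Map2k4 ranged from -0.031 to 0.14 and Mapkapk5 from -0.29 to 0.51, both turned without pan replicate 1. Mapkapk5 has no value among genes whose mean log2 value is 5 or more. Over all 248 genes, 5 were called with pan, and 1 among genes whose mean log2 value is 5 or more, 2 with a floor of 20 normalized counts, 3 with background subtracted, 8 and 9 with the total count and age covariates and 2 within the age label from 2 months. With 1 sample left out it was 1 (without vehicle replicate 2 or 3) to 7, and 2 to 3 without any one pan sample. With C1, 0 genes were called, 26 had an unadjusted p under 0.05, and 2 were called with a mean-dependent prior variance, 4 among genes whose mean log2 value is 5 or more and 1 with background subtracted, and 0 with any 1 sample left out. For C1 against pan, 1 gene was called, 2 with the floor, and 0 with a mean-dependent prior, median centring, 10 normalized counts added, voom weights, all groups in one fit or either covariate, and 0 to 1 with 1 sample left out (0 without any one C1 sample, pan replicate 1 or pan replicate 3). Within the age label from 22 months it was 0, with pan replicate 4 alone assumed to vary like the C1 samples, which says nothing about stability. Replicate numbers were not shown to pair the samples, since same-numbered samples' deviations correlated between -0.17 and 0.26 over all genes and -0.05 and 0.57 over the 131 well-detected ones (C1 and pan replicates 1 and 4, 0.51 and 0.57, and pan and vehicle replicates 3, 0.31), and not every pair exceeded 0.1. With the replicate block 5, 0 and 1 genes were called. The cause of these changes was not tested. Mapkapk5 is limited by its depth of 1 to 35 probe counts.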
